A study of Mus musculus with 4 samples.

Results

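Immediate early and heat shock genes were followed in cells of the murine trachea and stomach, sorted by FACS for EGFP or for Tomato from Tas2r143-reporter mice. Members were all protein-coding genes whose symbols belong to the FOS, JUN, EGR, NR4A, IER and DUSP families, to the HSP and DNAJ chaperone families or to the heat shock factors, together with Atf3, Btg2 and Zfp36. The chaperones of the endoplasmic reticulum Hspa5 and Hsp90b1 were left out. The rule read gene names and no measured values, but it was set with earlier results of these data known. It gave 120 of the 48709 genes in the deposited table. Of these 120 members, 94 reached 50 normalized counts in at least 1 library, 26 did not, and 12 of the latter were listed at 0 in all 4 libraries. One symbol, Hspa14, stood on 2 lines of the table, so the members carried 119 symbols.

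All mice were Tas2r143-CreERT2;Rosa26flox-mT-stop-flox-mG animals on a C57BL/6 background, and all received tamoxifen for 5 days and were analysed 5 days after the last injection. In these mice a BAC transgene with the Tas2r143 promoter drives CreERT2, and recombined cells and their progeny carry membrane EGFP in place of membrane Tomato. The 4 groups were trachea EGFP, trachea Tomato, stomach EGFP and stomach Tomato, each with 1 library of cells pooled from 3 mice. There was thus no replicate, so a difference below is one between 2 libraries and carries no p-value. Only in the Tomato sort were cells also required to carry EpCAM, a surface protein of epithelia. Tracheal cells were released with dispase at room temperature and warm trypsin, and stomach cells with Liberase at body temperature and trypsin, so tissue and dissociation protocol cannot be told apart. The mice were adult, and their exact ages are not given in the sources used here.

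Immediate early genes are transcribed within minutes of a stimulus from factors that are already present, mainly through the MAP kinase pathways. Their products include the AP-1 subunits of the FOS and JUN families, which bind DNA as dimers, and the DUSP phosphatases, which switch the MAP kinases off again. Heat-inducible chaperones are switched on by heat shock factor HSF1 when unfolded proteins accumulate, whereas their constitutive relatives fold proteins in unstressed cells. Genes of the immediate early and heat-inducible groups are known to be induced while tissue is dissociated with warm enzymes, which makes them of interest in any sorted population.

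Sample titles and tissue fields named opposite tissues, and the groups here follow the titles, which match the column names of the table. In Tomato cells the club cell gene Cyp2f2 was at 337775 normalized counts in the trachea and at 69 in the stomach, and the chief cell gene Pgc at 2 and 992416. These levels follow the titles. Library totals ranged from 9979296 to 15433150 normalized counts. From the spacing of the low values, about 6200000 reads were estimated for trachea EGFP and 17300000 to 18900000 for the other libraries, so low values were least precise in trachea EGFP. The summed 6 tuft cell markers were at 70051 in trachea EGFP and 82839 in stomach EGFP, against 1282 and 5601 in the Tomato libraries. Intervals given below are 95% exact binomial intervals of the estimated reads and cover counting error only, since PCR reads were counted without molecular identifiers.

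A heat shock factor binds repeats of a short unit, and units that face each other were searched as GAANNTTC or TTCNNGAA on both strands, from 250 bases before to 50 bases after each gene start in RefSeq (GRCm38.p6). Of 27025 genes with such a window, 17% held a pair of facing units, and 94 member symbols were matched. The pair was in the windows of 6 of 7 heat-inducible chaperones, 2 of 4 constitutive chaperones, 4 of 33 other J-domain proteins, 2 of 6 AP-1 genes, 1 of 6 genes of the EGR, NR4A and ATF3 group and none of the 4 genes of the IER, BTG2 and ZFP36 group. Over all members it was in 20 of 94, or 21.3%. A longer element of 3 units (GAANNTTCNNGAA or TTCNNGAANNTTC, which contains the pairs) was in 0.662% of genes and in 4 members. These were 2 of 4 constitutive chaperones, 1 of 7 heat-inducible ones and 1 of 33 other J-domain proteins. The CArG box, bound by serum response factor, was in 1.81% of genes and in 4 members, among them Zfp36 and Egr2. The AP-1 site (TGACTCA or TGAGTCA) was in 5.95% of genes and in 1 member. The stretches below are examples from members whose windows held a match. The windows of Fos and Fosb held neither facing units nor a CArG box. The stretches are shown 5′ to 3′ in the direction of the gene, with the facing units of the first 4 and the CArG boxes of the last 2 in capitals. A match describes the letters only and does not show binding.
Hspa1a, chr17:34972217-34972306, minus strand: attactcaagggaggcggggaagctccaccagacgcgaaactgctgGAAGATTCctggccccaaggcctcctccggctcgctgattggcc
Hspb1, chr5:135887769-135887858, plus strand: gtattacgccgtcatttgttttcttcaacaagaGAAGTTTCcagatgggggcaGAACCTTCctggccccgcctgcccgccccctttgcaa
Hspe1, chr1:55088018-55088107, plus strand: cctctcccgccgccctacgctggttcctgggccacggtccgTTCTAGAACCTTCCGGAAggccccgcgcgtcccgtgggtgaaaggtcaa
Hsph1, chr5:149636316-149636395, minus strand: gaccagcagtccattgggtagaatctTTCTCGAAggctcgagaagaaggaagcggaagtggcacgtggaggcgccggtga
Zfp36, chr7:28379249-28379318, minus strand: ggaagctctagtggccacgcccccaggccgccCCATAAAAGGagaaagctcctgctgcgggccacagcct
Egr2, chr10:67537769-67537838, plus strand: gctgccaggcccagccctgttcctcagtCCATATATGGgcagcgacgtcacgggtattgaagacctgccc

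Differences were read on the scale log2((A + 1)/(B + 1)), and a gene was called where they reached 4-fold and the library with more counts held 50 or more. In the trachea, 31 of 85 members at this minimum were lower in EGFP than in Tomato cells and 10 were higher, where 32.4% of all genes were lower and 25.2% higher. In the stomach, 29 of 88 members were lower and 5 higher in EGFP cells, against 22.4% and 14.8% of all genes. Between the EGFP libraries, 15 of 80 members were higher in the stomach and 15 lower, against 28.3% and 19.8% of all genes. Between the Tomato libraries, 18 of 93 members were higher in the stomach and 24 lower, against 27.9% and 20.3%. Over protein-coding genes alone, the shares lower and higher in EGFP cells were 32.7% and 23.4% in the trachea and 22.6% and 12.3% in the stomach, and the shares higher and lower in the stomach were 27% and 18.3% between the EGFP and 27.5% and 19.4% between the Tomato libraries. As a whole the members were therefore close to the background in the number of lower calls in the trachea, and the groups below differed among themselves. In sorted bulk cells, fewer cells of a type and less RNA per cell cannot be told apart.

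The AP-1 genes were lower in EGFP cells of both tissues, with a split between the FOS and JUN families in the trachea. Of 7 AP-1 genes, 4 were lower in trachea EGFP and 6 in stomach EGFP, against 32.4% and 22.4% of all genes, and none was higher. The median log2(EGFP/Tomato) of the group was -2.2 in the trachea and -3.91 in the stomach, against -0.32 and -0.15 over all genes at the minimum. Fos (chr12:85473890-85477273, GRCm38) encodes the best known early partner of JUN. Its level was 13693 normalized counts in trachea EGFP, 62889 in trachea Tomato, 556 in stomach EGFP and 8386 in stomach Tomato. Fos was thus lower in EGFP cells in both tissues and lower in the stomach in both sorts, and trachea Tomato stood highest. The EGFP library was 4.59-fold lower in the trachea (interval 4.49 to 4.7) and 15.1-fold lower in the stomach (14.0 to 16.3). With all libraries set to the same total, the tracheal difference of Fos was -1.62 on the log2 scale, under the limit for a call.

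Fosb, a FOS paralog, was at 229, 2287, 39 and 347 in the same order of libraries, 9.99-fold lower in EGFP cells of the trachea (8.45 to 11.9) and 8.9-fold lower in those of the stomach (6.57 to 12.1). Fosl2, another FOS relative that is often expressed later than Fos, was listed at 0 in trachea EGFP and at 2069 in trachea Tomato. In the stomach Fosl2 was at 31 and 1590, 51.3-fold lower in EGFP cells (37.8 to 73.2). Fosl1 had the same order, with 2 against 1738 in the trachea and 13 against 285 in the stomach, but 57.2% of its exon bases are overlapped by other genes. With the deposited scaling all 4 FOS genes were thus lower in EGFP cells of both tissues.

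The JUN genes behaved otherwise in the trachea. Junb was at 7814 in trachea EGFP and 8287 in trachea Tomato, a ratio of 0.943 (0.911 to 0.976), but at 324 in stomach EGFP and 5408 in stomach Tomato. Jun, the founding member of AP-1, was at 2319 and 3165 in the trachea and at 177 and 1831 in the stomach. Both genes were thus alike in 3 libraries and low in stomach EGFP, by 16.7-fold for Junb (15.1 to 18.5) and 10.3-fold for Jun (9.02 to 11.9) against stomach Tomato. Jund, which is known to be expressed without a stimulus, lay between 367 and 438 in all 4 libraries, and 52.6% of its exon bases overlap another gene.

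**Figure D1:**
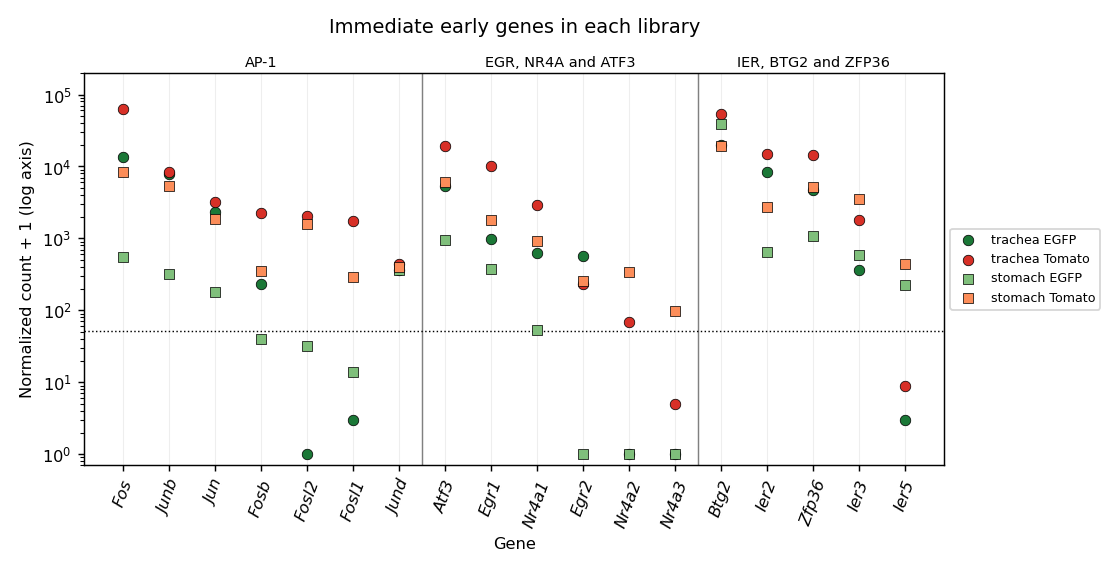
Normalized count + 1 (log axis) of the immediate early genes that reached 50 in any library (dotted line), 1 point per library without error bars because each group is 1 library. Fos, Fosb, Fosl1 and Fosl2 are highest in trachea Tomato, Jun and Junb are low in stomach EGFP only, and the 4 points of Jund lie together between 367 and 438.

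The EGR, NR4A and ATF3 group encodes zinc finger factors, orphan nuclear receptors and a bZIP factor of the stress response. In the trachea 3 of 5 genes at the minimum were lower in EGFP cells (Egr1, Nr4a1 and Nr4a2), and in the stomach all 6 were. The shares of all genes were 32.4% and 22.4%. With equal library totals Nr4a1 missed the limit in the trachea, at -1.66. Egr1 was at 966 in trachea EGFP and 10296 in trachea Tomato, 10.7-fold lower (9.82 to 11.6), and at 371 and 1777 in the stomach, 4.79-fold lower (4.33 to 5.3). Nr4a1 was at 626, 2945, 53 and 922, and Atf3 at 5323, 19464, 936 and 6065. For both, trachea Tomato was highest and stomach EGFP lowest, and the tracheal difference of Atf3, 3.66-fold (3.53 to 3.79), stayed under the limit for a call. Nr4a2 was listed at 0 in both EGFP libraries, at 67 in trachea Tomato and at 336 in stomach Tomato. Nr4a3 was at 96 in stomach Tomato and at 4 or 0 elsewhere.

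Egr2, whose CArG box is shown above, was the exception of the group in the trachea. It was at 567 in trachea EGFP, 235 in trachea Tomato and 256 in stomach Tomato, and it was listed at 0 in stomach EGFP. Trachea EGFP was thus the highest library for Egr2, 2.41-fold above trachea Tomato (2.06 to 2.83), under the limit for a call. Egr3 and Egr4 were listed at 0 in all 4 libraries.

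The genes Ier2, Ier3, Ier5, Btg2 and Zfp36 formed a mixed group. Zfp36, which destabilizes cytokine mRNAs, was at 4636, 14313, 1075 and 5198, and Ier2 at 8447, 14727, 639 and 2712. Both were lower in EGFP cells of the stomach, 4.84-fold for Zfp36 (4.56 to 5.13) and 4.24-fold for Ier2 (3.93 to 4.59), and under the limit in the trachea. Ier3 was lower in EGFP cells of both tissues, with 366 against 1797 in the trachea and 591 against 3548 in the stomach. The tracheal call was lost with equal library totals, at -1.72 for Ier3, as was the gastric call of Ier2, at -1.9. Btg2, an antiproliferative target of p53, went against the order of Fos in the stomach. It was at 20079 in trachea EGFP, 53741 in trachea Tomato, 38817 in stomach EGFP and 19246 in stomach Tomato, so that it was 2.02-fold higher in stomach EGFP than in stomach Tomato (1.99 to 2.05), below the limit for a call. Btg2 alone made up 87.8% of the summed immediate early counts of stomach EGFP, and 30.7% to 32.7% came from the highest gene in the other libraries. Ier5 was at 2 and 8 in the trachea and at 226 and 441 in the stomach, so it was found almost in the stomach alone.

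The MAP kinase phosphatases did not move as a group. In the trachea 3 of 6 members at the minimum were lower in EGFP cells and 2 higher, and in the stomach 1 of 8 was lower and none higher. Shares of all genes lower and higher were 32.4% and 25.2% in the trachea and 22.4% and 14.8% in the stomach. Dusp1, the phosphatase best known as an immediate early gene, was at 304 in trachea EGFP, 19939 in trachea Tomato, 535 in stomach EGFP and 873 in stomach Tomato. The single high library was trachea Tomato, 65.6-fold above trachea EGFP (56.8 to 76.0) and 22.8-fold above stomach Tomato (21.5 to 24.3). Dusp8, which acts on JNK and p38, had the reverse pattern, with 4 in trachea Tomato and 1642 to 2428 in the other 3 libraries. Dusp10 was likewise listed at 0 in trachea Tomato and lay between 90 and 167 elsewhere. Dusp6, a phosphatase of ERK, was at 1354, 4249, 758 and 487. Dusp7 was the sole MAP kinase phosphatase called lower in EGFP cells of both tissues, from 867 to a listed 0 in the trachea and from 132 to 21 in the stomach. Dusp9 was listed at 0 in all libraries.

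Among chaperones the heat-inducible members were lower in EGFP cells of both tissues, and most constitutive members were not called. Of 8 heat-inducible genes, 5 were lower in EGFP cells of the trachea and the same 5 in the stomach, namely Hspa1a, Hspa1b, Hsph1, Dnajb1 and Hspb1. Of 7 constitutive genes at the minimum, 2 were lower in the trachea (Hspe1 and Hspa14), and in the stomach 1 was lower (Hspa9) and 1 higher (Hspa14). Among all genes, 32.4% were lower in the trachea, and 22.4% lower and 14.8% higher in the stomach. The constitutive counts were thus near those of all genes. The median log2(EGFP/Tomato) was -2.56 and -2.38 for the heat-inducible genes and -1.3 and -0.42 for the constitutive ones. With equal library totals Hsph1, Hspe1 and Hspa14 missed the limit in the trachea, at -1.64, -1.86 and -1.43, and Hspa9 in the stomach, at -1.83, so that none of these lower calls of constitutive genes was left. These are descriptions of 2 short lists, and the difference between them was not tested.

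Hspa1a and Hspa1b (chr17:34969190-34972156 and chr17:34956436-34959238) encode the stress-induced HSP70 proteins. Hspa1a was at 209 in trachea EGFP, 1595 in trachea Tomato, 511 in stomach EGFP and 4909 in stomach Tomato, and Hspa1b at 39, 333, 308 and 1471. In both genes EGFP cells were lower in each tissue and stomach cells higher in each sort. Hspa1a was 7.63-fold lower in EGFP cells of the trachea (6.38 to 9.17) and 9.61-fold lower in those of the stomach (8.86 to 10.4). The copies are nearly identical, since 61.7% of the 75-base stretches of Hspa1a also occur in another gene, mainly Hspa1b, and their RefSeq promoter windows differ at 4 of 300 bases. Reads placed at several sites were left out by the authors, so each count rests on the stretches in which the copies differ.

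Hsph1, a nucleotide exchange factor of the HSP110 family, was at 21, 100, 248 and 1453, with EGFP cells lower in each tissue and stomach cells higher in each sort. Dnajb1, the J-domain partner that activates HSP70, was at 269 in trachea EGFP, 12313 in trachea Tomato, 899 in stomach EGFP and 5107 in stomach Tomato. Unlike Hspa1a, Dnajb1 was highest in trachea Tomato, 45.8-fold above trachea EGFP (39.3 to 53.7), while the stomach libraries differed by 5.68-fold (5.33 to 6.05). Its windows held no facing heat shock units. Hspb1, a small heat shock protein, was listed at 0 in trachea EGFP and was at 57, 8 and 108 in the others. Other genes share 46.4% of the 75-base stretches of Hspb1 and 42.8% of those of Hsp90aa1, and reads placed at several sites were left out. The remaining heat-inducible genes were flatter. Hsp90aa1 was at 660, 1509, 1786 and 3025, Dnaja1 at 3336, 1927, 2388 and 4151, and Dnajb4 at 180, 466, 430 and 428.

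Among the constitutive chaperones, Hsp90ab1 was the most abundant per kilobase of exon in each library and varied little. This cytosolic HSP90 was at 23774 in trachea EGFP, 15463 in trachea Tomato, 17106 in stomach EGFP and 21456 in stomach Tomato, so that the highest library was 1.54-fold above the lowest (1.5 to 1.57). Hspa8, the constitutive HSP70, was at 3963, 5056, 4446 and 9745. Hspa8 shares 33.0% of its 75-base stretches with other genes, largely processed pseudogenes. Hspa9, the mitochondrial HSP70, was at 768, 1887, 867 and 3495, higher in Tomato than in EGFP cells of both tissues and 4.03-fold in the stomach (3.77 to 4.31). Hspa4, an HSP110 relative, was at 520, 1716, 2093 and 544, with opposite orders of EGFP and Tomato in the tissues, neither past the limit.

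Hspd1 and Hspe1 encode the mitochondrial chaperonin HSP60 and its partner HSP10, and they are transcribed in opposite directions from a shared promoter. Their RefSeq windows share 285 bases, which hold the overlapping heat shock units shown for Hspe1. Hspe1 was at 422 in trachea EGFP, 2282 in trachea Tomato, 1724 in stomach EGFP and 2309 in stomach Tomato, and Hspd1 at 1235, 848, 783 and 2029. Hspe1 was thus low in trachea EGFP alone, 5.41-fold under trachea Tomato (4.77 to 6.16), whereas Hspd1 was 1.46-fold higher there (1.33 to 1.6). The ratio of Hspd1 to Hspe1 within a library was 2.93 in trachea EGFP and 0.372, 0.454 and 0.879 in trachea Tomato, stomach EGFP and stomach Tomato. Of the 75-base stretches of Hspd1, 29.6% also occur in other genes.

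**Figure D2:**
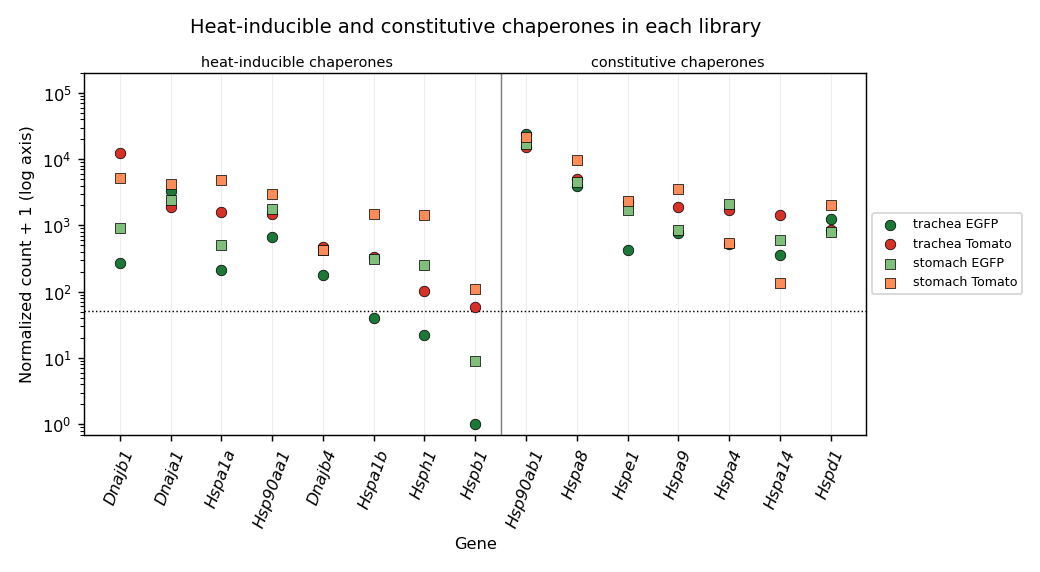
Normalized count + 1 (log axis) of the heat-inducible and constitutive chaperones that reached 50 in any library (dotted line), 1 point per library without error bars because each group is 1 library. Trachea EGFP is the lowest library for Dnajb1, Hspa1a, Hspa1b, Hsph1 and Hspb1, while the 4 points of Hsp90ab1 lie between 15463 and 23774.

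The heat shock factors were present in all libraries only as Hsf1 and Hsf2. Hsf1, the factor that drives the heat-inducible chaperones, was low and even, with 153, 275, 131 and 131 normalized counts. Hsf2, a factor of development that can pair with HSF1, was at 473 in trachea EGFP, 1860 in trachea Tomato, 4858 in stomach EGFP and 1205 in stomach Tomato. Stomach EGFP was the highest library for Hsf2, 4.03-fold above stomach Tomato (3.81 to 4.27) and 10.3-fold above trachea EGFP (9.13 to 11.6). The difference from stomach Tomato was just past the limit. It fell to 1.94 on the log2 scale without immunoglobulin and the 100 highest genes in the totals. With equal totals of the 8 TRiC chaperonin genes it was 1.88. Hsf5 was at 312 in trachea EGFP and at 1 or 0 elsewhere, and Hsf3 and Hsf4 were listed at 0 in all libraries.

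The other chaperones and co-chaperones showed library-specific values rather than a common order. Of 40 other J-domain proteins, 31 were at the minimum in the trachea, where 3 were higher and 8 lower in EGFP cells, and 30 in the stomach, where 3 were higher and 4 lower. None of these counts exceeded the shares of all genes, 25.2% and 32.4% in the trachea and 14.8% and 22.4% in the stomach. Dnajc1, a membrane J-domain protein of the endoplasmic reticulum, was at 132, 4436, 31 and 465 and was lower in EGFP cells of both tissues. Dnajb11, a luminal J-domain protein of that compartment, was at 104 in trachea Tomato and between 1223 and 2317 in the others. Dnajc13, an endosomal protein, was at 10 and 4 in the trachea and at 718 and 120 in the stomach. Dnajc9, a histone co-chaperone, was at 1807, 594, 376 and 80. Among the small heat shock proteins, Hspb8, a partner of BAG3, was at 3253 in trachea Tomato, 38 in stomach Tomato and 0 in both EGFP libraries, and Hspb3, Hspb7 and Hspb9 were listed at 0 throughout. Hspa2, an HSP70 best known from spermatocytes, was at 1934 in trachea EGFP, 129 in trachea Tomato, 211 in stomach EGFP and 869 in stomach Tomato.

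Counted over both tissues, 15 of 79 members at the minimum in each were lower in EGFP cells both times, none was higher in both and 4 went opposite ways. Over all 8594 genes of this kind, 9.62% were lower in both tissues, 5.14% higher in both and 5.78% opposite. The tracheal and gastric comparisons share no library. The 15 members were the 4 FOS genes, Egr1, Nr4a1, Nr4a2, Ier3, Dusp7, the 5 heat-inducible chaperones named above and Dnajc1. No constitutive chaperone was among them, but at a share of 9.62% so short a list would often hold none. With equal library totals 11 members were lower and 2 higher in both tissues, and with immunoglobulin and the 100 highest genes left out of the totals 10 were lower and none higher. The shares above hold for the deposited scaling. They were not counted anew for all genes under these scalings, so these counts have no background beside them. Fos, Nr4a1, Ier3 and Hsph1 were the members missing in both of these settings.

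**Figure D3:**
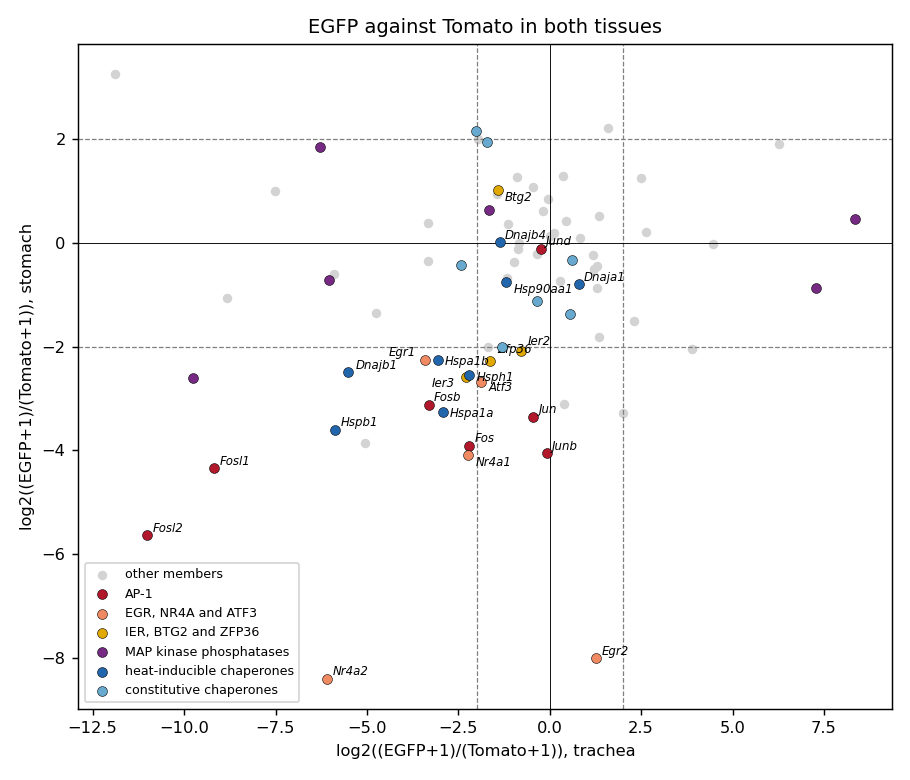
Each point is 1 of the 79 members at the minimum in both tissues, placed by log2((EGFP + 1)/(Tomato + 1)) in the trachea (x axis) and the stomach (y axis), with dashed lines at the 4-fold limits and colours for the groups. The lower left field holds 15 members, mainly FOS genes and heat-inducible chaperones, the upper right field is empty, and points of genes listed at 0 in a library depend on the added 1.

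Markers of other cells moved with this contrast. The 4 fibroblast markers summed to 25385 and 21955 in tracheal and gastric Tomato cells and to 444 and 184 in the EGFP libraries, where Lum was at 0 in both and Col1a1 and Col1a2 at 0 in the trachea. The 5 myeloid markers summed to 35818 and 7267 in the Tomato and to 525 and 13 in the EGFP libraries. Most of the Tomato sums came from Lyz2 alone, at 35491 in trachea Tomato and 5413 in stomach Tomato. Cd68 was at 151 and Csf1r at 176 in trachea Tomato. Adgre1 and Itgam were at 0 in both EGFP libraries and in trachea Tomato. The 4 B and plasma cell markers went the other way, with 17946 and 682510 in the EGFP and 963 and 36930 in the Tomato libraries. Cd79a and Mzb1 were at 0 in both tracheal libraries. Immunoglobulin genes and Jchain took 12.9% of stomach EGFP and at most 0.549% of the others. The part of these cells in the results was not tested.

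Between tissues, 4 of 5 AP-1 genes were lower in the stomach between the EGFP libraries and 3 of 7 between the Tomato libraries, against 19.8% and 20.3% of all genes, and none was higher. Of the heat-inducible chaperones, 2 of 7 were higher in the stomach between the EGFP and 2 of 8 between the Tomato libraries and none was lower, close to the 28.3% and 27.9% of all genes that were higher. The median log2(stomach/trachea) was -3.7 and -0.79 for AP-1 and 1.43 and 1.05 for the heat-inducible genes, against 0.16 and 0.11 over all genes. Constitutive chaperones had medians of 0.17 and 0.47, of which the first was -0.27 with equal library totals and -0.09 with equal totals of the TRiC genes, so that its direction was not fixed. The signs of the medians of the other 2 groups were the same under every scaling tried.

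Fos, at the levels given above, was 24.6-fold lower in stomach than in trachea EGFP (22.8 to 26.6) and 7.5-fold lower in stomach than in trachea Tomato (7.35 to 7.66). Ier2 was 13.2-fold (12.3 to 14.3) and 5.43-fold lower (5.23 to 5.64). Conversely, Hsph1 was 11.8-fold higher in stomach EGFP (6.84 to 22.5) and 14.5-fold higher in stomach Tomato (12.1 to 17.5). Hspa1b was 7.9-fold (5.28 to 12.6) and 4.42-fold higher (3.96 to 4.92). Hspa1a was 2.44-fold and 3.08-fold higher, short of the limit, so only part of the heat-inducible list was called. Dnajb1 went both ways, 3.34-fold higher in stomach EGFP (2.84 to 3.96) and 2.41-fold lower in stomach Tomato (2.34 to 2.48).

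Over both sorts, 7 members were higher in the stomach both times (Ier5, Dusp4, Hspa1b, Hsph1, Dusp12, Dnajc13 and Dnajc22) and 5 lower (Fos, Fosb, Ier2, Dnajc1 and Dnajc9), while 4 went opposite ways. Of all 8652 genes at the minimum in both sorts, 10.1% were higher both times, 4.48% lower both times and 7.63% opposite. These tissue contrasts rest on the same 4 libraries as the contrasts of EGFP with Tomato, so neither set stands apart from the other.

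**Figure D4:**
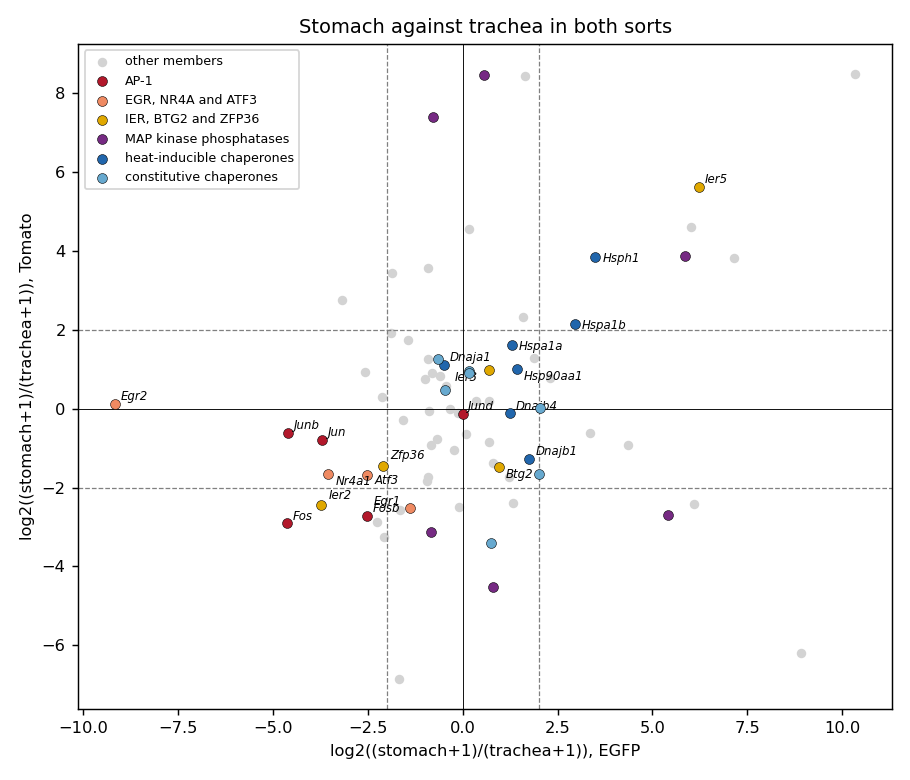
Members at the minimum in both sorts, placed by log2((stomach + 1)/(trachea + 1)) between the EGFP libraries (x axis) and between the Tomato libraries (y axis), with dashed lines at the 4-fold limits. Fos, Fosb and Ier2 lie in the lower left field and Hsph1, Hspa1b and Ier5 in the upper right, and points of genes listed at 0 in a library depend on the added 1.

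Ratios of 2 genes within a library do not depend on how libraries were scaled, and they were added after the data had been seen. They compare libraries, not the levels of the 2 genes, which differ in length. Relative to Hsp90ab1, Fos was at 0.576 in trachea EGFP (0.561 to 0.592), 4.07 in trachea Tomato (4 to 4.13), 0.0325 in stomach EGFP (0.0301 to 0.035) and 0.391 in stomach Tomato (0.382 to 0.4). The same order of EGFP below Tomato in each tissue held for Hspa1a, at 0.00879, 0.103, 0.0299 and 0.229 of Hsp90ab1. Here the stomach library was above the tracheal one in both sorts, where Fos had the reverse. The ratio of Hspa1a to Fos was accordingly 0.0153 and 0.0254 in the trachea and 0.919 and 0.585 in the stomach. Within the HSP70 proteins, the ratio of inducible Hspa1a to constitutive Hspa8 was 0.0527 in trachea EGFP, 0.315 in trachea Tomato, 0.115 in stomach EGFP and 0.504 in stomach Tomato.

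**Figure D5:**
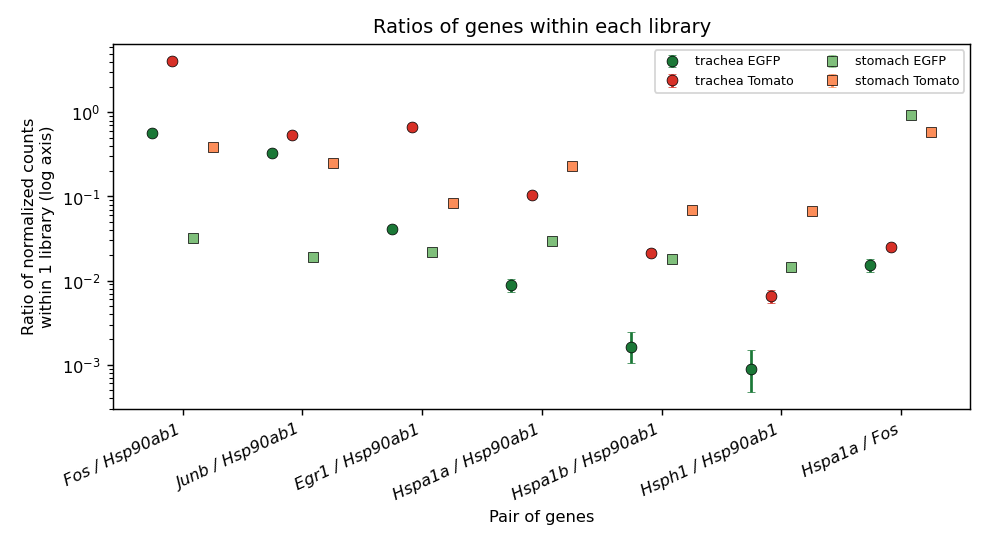
Ratio of the normalized counts of 2 genes within each library (log axis), with 95% exact binomial intervals of the estimated reads as bars, which are mostly smaller than the points. The first 3 ratios are lowest in stomach EGFP and the next 3 in trachea EGFP, and the ratio of Hspa1a to Fos lies at 0.0153 and 0.0254 in the trachea and at 0.919 and 0.585 in the stomach.

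Further genes known to be induced during dissociation, which are no members, gave a like order between the sorts. Of 29 such genes at the minimum, 14 were lower and 3 higher in EGFP cells of the trachea, and of 32 in the stomach 20 were lower and none higher. Among all genes, 32.4% were lower and 25.2% higher in the trachea, and 22.4% and 14.8% in the stomach. Cyr61, a matricellular gene, was at 485, 5990, 112 and 2877, and Cxcl2, a neutrophil chemokine, was listed at 0 in both EGFP libraries and was at 119 and 1469 in the Tomato libraries. The 3 genes higher in trachea EGFP were Plk2, Cxcl1 and Ptgs2. Plk2, a stress-induced kinase, was at 25670 against 1286 in trachea Tomato, Cxcl1 at 77 against 0 and Ptgs2 at 72 against 6. Between tissues the list had no common order, with 6 of 27 higher and 5 lower in stomach EGFP and 11 of 33 higher and 6 lower in stomach Tomato. The shares of all genes there were 28.3% and 19.8%, and 27.9% and 20.3%. The 8 subunits of the TRiC chaperonin, which folds actin and tubulin, were called in none of the 4 comparisons. Their log2(EGFP/Tomato) lay between -1.35 and 1.06 in the trachea and between -0.86 and 1.13 in the stomach. Of the HSP90 and HSP70 co-chaperones, 3 of 13 were lower in EGFP cells of the trachea and 1 of 14 in the stomach, none was higher, and Bag3, the heat-inducible partner of HSP70, was lower in both, from 505 to a listed 0 and from 1194 to 182.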

How the data were processed

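RNA from sorted cells was amplified as full-length cDNA with a SMART-Seq kit and sequenced, 1 library for each of 4 groups. Per the labels and the methods of the study, reads were aligned by the authors to GRCm38 with STAR 2.4.0a, after trimming with Reaper, and featureCounts 1.4.5-p1 counted those over exons, without reads that overlapped several genes or mapped to several sites. The deposited values were taken as a score, namely counts per gene that the authors had normalized between libraries and rounded to whole numbers. Which normalization they used is not stated in the sources used here. All 37 mitochondrial genes are listed at 0.

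From these values log2((A + 1)/(B + 1)) was calculated for 4 comparisons, with Python 3.11.15, pandas 2.3.3 and SciPy 1.17.1, and calls required 4-fold and at least 50 in the higher library. With 1 library per group, no test across genes was run. The worth of 1 read was estimated as 0.786 to 1.61 normalized counts, and 3 reads were taken as the detection floor, 2.36 to 4.83 normalized counts. The estimate and the rule were tested on simulated data. Gene positions came from GENCODE release M21, and promoter windows from RefSeq. Alternatives were other pseudocounts, minimums, limits and scalings.

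Named were all members of the AP-1, EGR, IER, heat-inducible, constitutive and heat shock factor groups. Of each other group and list, a rule picked up to 4 genes with the largest change past the limit in each comparison. Genes of opposite direction were added, and all of those are named. Only some of the genes picked by size are named in the text. That choice, and that of named genes outside the rule, was made after their values were seen. Members, groups and lists were chosen with earlier results of these data known.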

Additional observations from a re-analysis of the deposited data

Results flagged for a closer look

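Members that were called in opposite directions under the same contrast are given here as log2 ratios with 1 library per group, and the difference between their directions was not tested. Dnajc17, a J-domain protein linked to splicing, was at 3761 in trachea Tomato, 484 in stomach EGFP, 50 in stomach Tomato and listed at 0 in trachea EGFP. Its log2(EGFP/Tomato) was -11.88 in the trachea, which depends on the added 1, and 3.25 in the stomach, and its log2(stomach/trachea) was 8.92 between EGFP and -6.2 between Tomato libraries. Hspa2 had log2(EGFP/Tomato) of 3.9 in the trachea and -2.04 in the stomach, and log2(stomach/trachea) of -3.19 in EGFP and 2.74 in Tomato cells. Its call between the stomach libraries was lost with a pseudocount of 10, at -1.99, and with equal library totals, at -1.86. Dusp23, at 233, 57, 63 and 627 normalized counts in trachea EGFP, trachea Tomato, stomach EGFP and stomach Tomato, had log2(EGFP/Tomato) of 2.01 in the trachea and -3.29 in the stomach. The tracheal value of Dusp23 was just past the limit and fell to 1.86 with a pseudocount of 10. Hspa14, a ribosome-associated HSP70 relative, was at 359, 1447, 609 and 136, with log2 ratios of -2.01 and 2.15, just past the limit in both tissues. These values and all calls of Hspa14 are from the line of this symbol with more counts. The other line was at 0, 11, 8 and 0, under the minimum in every comparison.

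For stomach against trachea, Dusp16, a JNK phosphatase, was at 5.42 between the EGFP and -2.7 between the Tomato libraries, with 5 normalized counts in trachea EGFP. Hspbap1, matched by its name alone, was at 6.09 and -2.41, with 2 normalized counts in trachea EGFP. Without immunoglobulin and the 100 highest genes in the totals, its value between the Tomato libraries was -1.99, under the limit.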

How the results depend on the processing

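No paired analysis was possible because each group holds 1 library. Each library stands for 1 pool of mice, so no spread between mice, sorts or preparations was measured, and the depth of trachea EGFP limits its low values most. Calls were followed for the members picked by the naming rules, not all of which appear in the text. Of these 132 calls, 132 held with a pseudocount of 0.1, without a minimum and with median-of-ratios factors, and 125 with a pseudocount of 10. With a minimum of 200 normalized counts 113 held. With equal library totals 121 held, without immunoglobulin and the 100 highest genes in the totals 123, and with equal totals of the 8 TRiC genes, chosen after seeing the data, 128. With equal totals, Fos, Nr4a1, Ier3, Hsph1, Hspe1 and Hspa14 were no longer called in the trachea, nor Hspa9, Ier2 and Hspa2 in the stomach. The median of all genes moved from -0.32 to 0.35 in the trachea and from 0.16 to -0.34 in stomach against trachea EGFP. Without immunoglobulin and the 100 highest genes it moved from 0.11 to 0.59 in stomach against trachea Tomato, where Hspa1a then passed the limit at 2.04.

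The counts of members moved as follows, and the cause was not tested beyond the changed limit itself. Without a minimum, 8 of 120 members were higher in stomach EGFP than stomach Tomato, against 5.62% of all genes. Likewise 24 of 120 were higher in stomach than trachea EGFP, against 10.5%. With equal totals 9 of 87 members were higher and 25 lower in stomach EGFP against Tomato, in place of 5 and 29. Shares of all genes were then 16.4% and 20.6%. In stomach against trachea EGFP 12 of 80 were higher and 20 lower, in place of 15 and 15, against 25% and 24.6%. With a 2-fold limit 18 of 85 were higher in EGFP cells of the trachea and 14 of 88 in those of the stomach. In stomach against trachea EGFP 24 of 80 were higher. The shares of all genes were 33.9%, 26% and 37.3%. With an 8-fold limit 6 of 85 were higher in EGFP cells of the trachea, and 1 of 88 higher and 16 lower in those of the stomach. Shares of all genes were 19.6%, 9.28% and 16.5%. Between tissues 8 of 80 were lower in stomach EGFP and 10 of 93 in stomach Tomato, against 13.7% and 13.6%. Of 24 group medians, 18 were below 0, and 17 to 19 under the alternatives. No call of the members picked by the naming rules changed its direction.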

Other observations

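The kinases upstream of the immediate early genes and the partners of serum response factor were also read. Of 14 such genes at the minimum, 3 were higher and 5 lower in EGFP cells of the trachea, and of 17 in the stomach none was higher and 1 lower. Shares of all genes higher and lower were 25.2% and 32.4% in the trachea and 14.8% and 22.4% in the stomach. Between tissues 5 of 15 were higher and 2 lower in stomach EGFP, and 5 of 17 higher and 2 lower in stomach Tomato. All genes had shares of 28.3% and 19.8% in stomach EGFP and 27.9% and 20.3% in stomach Tomato. Mapk3, which encodes ERK1, was at 48 in trachea EGFP, 6218 in trachea Tomato, 2947 in stomach EGFP and 1136 in stomach Tomato. Mapk8, which encodes JNK1, was listed at 0 in trachea Tomato and was at 271, 156 and 483 in the others. Creb1, a factor that binds cAMP response elements, was at 2 in trachea EGFP, 5358 in trachea Tomato, 693 in stomach EGFP and 482 in stomach Tomato.

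Between EGFP and Tomato cells, genes of endoplasmic reticulum stress and the integrated stress response did not share the order of the heat-inducible chaperones. Of 8 at the minimum in the trachea, none was higher and 1 lower in EGFP cells, and of 9 in the stomach 1 was higher and 1 lower. Shares of all genes higher and lower were 25.2% and 32.4% in the trachea and 14.8% and 22.4% in the stomach. In stomach against trachea, 1 of 8 was higher between the EGFP libraries and 3 of 10 higher and 1 lower between the Tomato libraries. Among all genes, 28.3% were higher between the EGFP libraries, and 27.9% higher and 20.3% lower between the Tomato libraries. Chac1, which breaks down glutathione, was listed at 0 in both tracheal libraries and was at 771 in stomach EGFP and 173 in stomach Tomato. Asns, the asparagine synthetase, was at 2454, 671, 1731 and 5805 in trachea EGFP, trachea Tomato, stomach EGFP and stomach Tomato.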
